A study of Mus musculus with 21 samples.

Results

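Cohesin is the ring-shaped complex that holds sister chromatids together. Its ring is made of SMC1, SMC3 and a kleisin subunit, and a STAG subunit binds to the kleisin. In meiosis, part of the complex is exchanged for germ cell variants, so that SMC1B can take the place of SMC1A, REC8 or RAD21L that of RAD21, and STAG3 that of STAG1 or STAG2. SMC3 has no meiotic variant. The meiotic forms carry the chromosome axis on which recombination takes place, and mice that lack Rec8, Smc1b or Stag3 are sterile.

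The levels of 9 cohesin genes were followed in RNA-seq of germ cells from C57BL/6J (B6) males at 12 days post-partum (dpp). The genes are those of the mitotic subunits (Smc1a, Rad21, Stag1 and Stag2), of the meiotic subunits (Smc1b, Rec8 and Stag3), of the shared subunit Smc3 and of the cohesin loader Nipbl. They were chosen by symbol, and all 9 were found among the 37620 genes of the expression table. Every sample is 1 of 3 libraries of a number, and the 4 numbers are 186wt, 343wt, 444wt and 456wt. No treatment or mutation separates them, and every library has the same strain and age. The cells are labelled spermatocytes and were enriched from testes with collagenase and trypsin. As the study has 4 replicates, libraries were first averaged within a number, and each mean ± SD is over 4 numbers. Whether a number stands for 1 animal or for a pool is not given in the sources used here. Values are FPKM, fragments scaled to the length of the transcript and to the depth of the library, so levels of different genes can be set side by side.

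The libraries held between 12.95 and 18 M (mega) aligned fragments, as estimated from the step that 1 fragment adds to the value of a short gene. At the smallest depth, the lowest value of any of the 9 genes in any library, 16.6 FPKM for Nipbl, corresponds to 215 fragments for each kb of transcript. The preparation was not pure. Of the 9 genes listed as meiotic prophase markers, 8 were in the table, and their summed level was 278 FPKM in 186wt, 210.8 in 343wt, 358 in 444wt and 249 in 456wt. The 8 Sertoli cell markers summed to 3650, 3843, 2146 and 2283 FPKM in the same order. Clu gave most of these sums, with a mean of 1844 FPKM, followed by Aard with 580 FPKM. Spermatogonial markers summed to between 565 and 770 FPKM and peritubular myoid markers to between 253 and 1112 FPKM. No marker of any list was at 0 in all libraries, but Leydig, endothelial and macrophage lists were low, with sums from 3.41 to 107.4 FPKM. The 6 markers of pachytene and later stages summed to 56.5, 41.4, 43.2 and 65.9 FPKM in the 4 numbers. Most of this was Hspa2, with a mean of 36.8 FPKM, followed by Ldhc with 7.18 and Piwil1 with 6.50 FPKM, while Acr (0.600 FPKM), Ccna1 (0.590 FPKM) and Pgk2 (0.0900 FPKM) were lowest. Beside the spermatocytes of the label, markers of spermatogonia and of somatic cells were thus present. In such bulk samples, fewer cells of a type and less RNA per cell cannot be told apart.

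The promoters of the meiotic genes and of the mitotic paralogs found are shown because the members fell into different patterns between the samples. RefSeq promoter windows (build GRCm38.p6, 250 bases before to 50 after the start site) were found for 6 of the 9 genes, Smc1a, Smc1b, Smc3, Rec8, Stag1 and Stag3. The other three, Rad21, Stag2 and Nipbl, are named only. Capitals mark the E2F-type letters GCGGGAA, which read on the other strand are TTCCCGC. They also mark the E-box, with the letters CACGTG. The windows run 5′ to 3′ on the strand of the gene.
Smc1b, chr15:85131908-85132207, minus strand: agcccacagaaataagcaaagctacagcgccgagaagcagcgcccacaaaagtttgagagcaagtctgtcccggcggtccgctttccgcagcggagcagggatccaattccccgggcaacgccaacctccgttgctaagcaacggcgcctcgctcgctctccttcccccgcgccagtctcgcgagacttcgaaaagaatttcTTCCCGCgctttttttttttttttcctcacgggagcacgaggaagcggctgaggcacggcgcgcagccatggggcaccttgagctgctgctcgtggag
Stag3, chr5:138280259-138280558, plus strand: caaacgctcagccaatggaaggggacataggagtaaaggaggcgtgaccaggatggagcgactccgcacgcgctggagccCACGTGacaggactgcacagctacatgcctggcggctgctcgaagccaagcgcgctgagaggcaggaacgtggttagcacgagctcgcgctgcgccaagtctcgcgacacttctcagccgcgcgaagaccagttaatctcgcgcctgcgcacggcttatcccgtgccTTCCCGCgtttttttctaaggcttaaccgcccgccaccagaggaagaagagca
Rec8, chr14:55617916-55618215, plus strand: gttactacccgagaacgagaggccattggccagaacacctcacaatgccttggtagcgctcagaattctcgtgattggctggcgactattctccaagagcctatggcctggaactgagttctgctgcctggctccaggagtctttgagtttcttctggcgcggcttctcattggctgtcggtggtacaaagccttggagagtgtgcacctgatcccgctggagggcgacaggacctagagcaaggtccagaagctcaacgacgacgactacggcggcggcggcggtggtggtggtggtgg
Smc1a, chrX:152016178-152016477, plus strand: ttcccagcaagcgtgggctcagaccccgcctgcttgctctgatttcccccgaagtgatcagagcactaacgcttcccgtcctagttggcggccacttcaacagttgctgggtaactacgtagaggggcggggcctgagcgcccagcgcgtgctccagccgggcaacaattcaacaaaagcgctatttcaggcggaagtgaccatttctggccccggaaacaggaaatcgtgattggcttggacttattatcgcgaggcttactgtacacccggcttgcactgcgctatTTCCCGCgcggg
Stag1, chr9:100643198-100643497, plus strand: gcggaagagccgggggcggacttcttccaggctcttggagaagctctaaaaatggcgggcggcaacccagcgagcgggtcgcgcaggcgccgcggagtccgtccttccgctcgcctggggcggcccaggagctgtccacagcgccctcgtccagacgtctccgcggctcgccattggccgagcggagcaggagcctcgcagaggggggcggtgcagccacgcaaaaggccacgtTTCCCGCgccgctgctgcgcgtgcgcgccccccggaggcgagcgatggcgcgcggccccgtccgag

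E2F-type sites are bound by E2F factors, and E2F6 is known to keep Smc1b and Stag3 silent in somatic cells. The E2F-type letters were in the windows of Smc1b, Stag3, Smc1a and Stag1, each as TTCCCGC on the strand of the gene, and in neither that of Rec8 nor that of Smc3. They began 48 bases before the start site in Smc1b, 3 bases before it in Stag3 and 16 before it in Stag1. In Smc1a they began at base 39 after the start site. These letters were in 4.60% of the 32851 RefSeq windows of the same length and in 9.74% of the 11074 windows at least as rich in G and C as that of Smc1a (58.3%). The E-box was in the Stag3 window only among the 6, beginning 170 bases before the start site, and in 7.15% of all windows. The STRA8-type letters CNCCTCAG (7.94% of windows) and the CRE letters TGACGTCA (1.79% of windows), both searched on both strands, were in none of the 6. A match is a description of the letters and not of binding, and the letters were present in windows of mitotic as well as meiotic genes.

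The kleisin gene Rad21 and the STAG gene Stag3 gave the highest levels, with 103.6 ± 4.43 FPKM (SD, n = 4) and 92.9 ± 18.7 FPKM. A middle group held Smc3 with 51.3 ± 5.19 FPKM, Smc1b with 47.5 ± 14.2 FPKM and Stag1 with 47.3 ± 3.64 FPKM. The lowest were Smc1a with 26.8 ± 1.31 FPKM, Stag2 with 22.5 ± 0.603 FPKM, Rec8 with 20.6 ± 4.32 FPKM and Nipbl with 20.04 ± 2.17 FPKM. Every one of the 9 was well expressed, since even Nipbl was higher than 73.9% of the 20795 genes whose mean reached 0.1 FPKM. Meiotic and mitotic subunits were thus interleaved in the order of levels rather than separated.

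Within this order, the neighbours Rad21 and Stag3 could not be separated, because Rad21 was higher in only 3 of 4 numbers and their difference of 10.7 ± 18.4 FPKM (SD, n = 4) was smaller than its spread. The same held for Smc3 and Smc1b, with 3.77 ± 9.55 FPKM, and for Smc1b and Stag1, with 0.218 ± 11.5 FPKM. Stag2 exceeded Rec8 by 1.88 ± 4.91 FPKM, and Rec8 exceeded Nipbl by 0.574 ± 3.94 FPKM. Between the groups, Stag3 was above Smc3 by 41.6 ± 14.6 FPKM and Stag1 above Smc1a by 20.5 ± 3.69 FPKM, in 4 of 4 numbers each. Smc1a was above Stag2 by 4.32 ± 1.77 FPKM, also in 4 of 4. With 4 numbers, an exact permutation test that flips signs (two-sided) cannot give less than p = 0.13, the value of the last 3 differences.

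**Figure D1:**
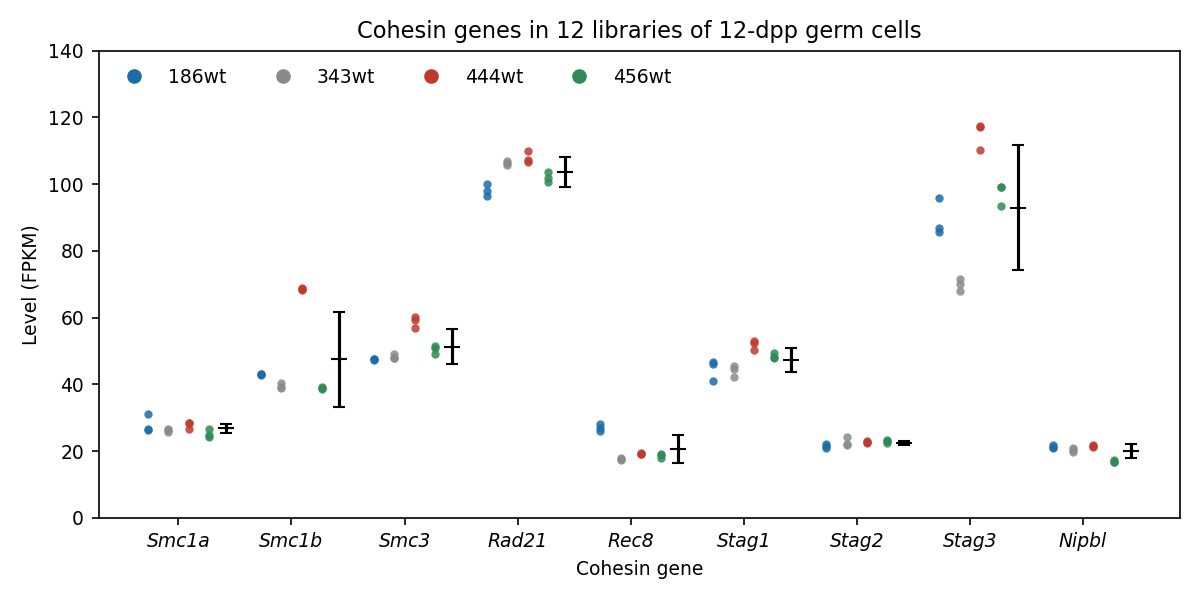
Level in FPKM (vertical axis) of each cohesin gene (horizontal axis) in every library, coloured by sample number, with the mean and SD over the 4 numbers in black. Smc1b stands apart in 444wt at 68.7 FPKM, Rec8 in 186wt at 27 FPKM, whereas Smc1a and Stag2 overlap between numbers.

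A gene's FPKM here is the sum over its annotated transcripts, so short transcripts can weigh in. On NCBI build 37, Smc1b (chromosome 15, 84895121 to 84962387, minus strand), Rad21 (chromosome 15, 51794151 to 51823306, minus strand) and Nipbl (chromosome 15, 8241225 to 8394463, minus strand) have 1 annotated transcript each. Stag1 (chromosome 9, 100498217 to 100858964) has 17, of 536 to 6186 bp. Stag3 (chromosome 5, 138721468 to 138753621) has 9, Stag2 (X chromosome, 39502494 to 39630362) has 8 and Smc1a (X chromosome, 148450971 to 148497237) has 6. Rec8 (chromosome 14, 56236874 to 56244232) and Smc3 (chromosome 19, 53674886 to 53720323) have 4 each. Of the genes annotated inside members, on the opposite strand, Gm15267 in Smc1a had 0.365 FPKM and Gm10923 in Smc1b had 0.248 FPKM, far below their hosts.

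The comparison of meiotic subunits with their mitotic paralogs did not give the same answer at every position of the complex. The meiotic form was the higher at the SMC1 and STAG positions and the lower at the kleisin position, in all 4 numbers. Smc1b, which encodes the meiotic SMC1, was 1.72-fold as high as Smc1a, a mean log2 ratio of 0.78 ± 0.35 (SD, n = 4). Stag3, the meiotic STAG gene, was 1.94-fold as high as Stag1 (log2 ratio 0.95 ± 0.21) and 4.05-fold as high as Stag2 (log2 ratio 2.02 ± 0.30). Rec8, the meiotic kleisin that protects sister cohesion until the second division, was at 0.197 of the level of Rad21, a log2 ratio of -2.34 ± 0.33. Each of these ratios had the same sign in 4 of 4 numbers, and the exact permutation test gave p = 0.13 for each, the smallest that n = 4 allows. Between the mitotic STAG genes, Stag2 was at 0.478 of the level of Stag1 (log2 ratio -1.07 ± 0.10). These ratios are of FPKM + 0.1 after the libraries of a number were averaged. A scaling common to those libraries thus changes them only through the added 0.1.

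Summed by position, SMC1 genes came to 74.3 ± 15.1 FPKM (SD, n = 4) and Smc3, their partner in the ring, to 51.3 FPKM. The kleisins, with Rad21l counted in, came to 130.9 ± 4.57 FPKM and the STAG genes to 162.7 ± 22.2 FPKM. The meiotic share was 63.1 ± 5.36% at the SMC1 position, 20.8 ± 3.32% at the kleisin position and 56.7 ± 4.01% at the STAG position. These are shares of RNA in the whole mixture of cells, not in spermatocytes alone, and protein was not measured. The kleisin sum differed least between numbers, lying between 126.1 FPKM (456wt) and 136.9 FPKM (444wt), and its meiotic share was highest in 186wt at 25.3%. At the SMC1 position the meiotic share was between 60.1% and 60.6% in 3 numbers and 71.2% in 444wt.

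**Figure D2:**
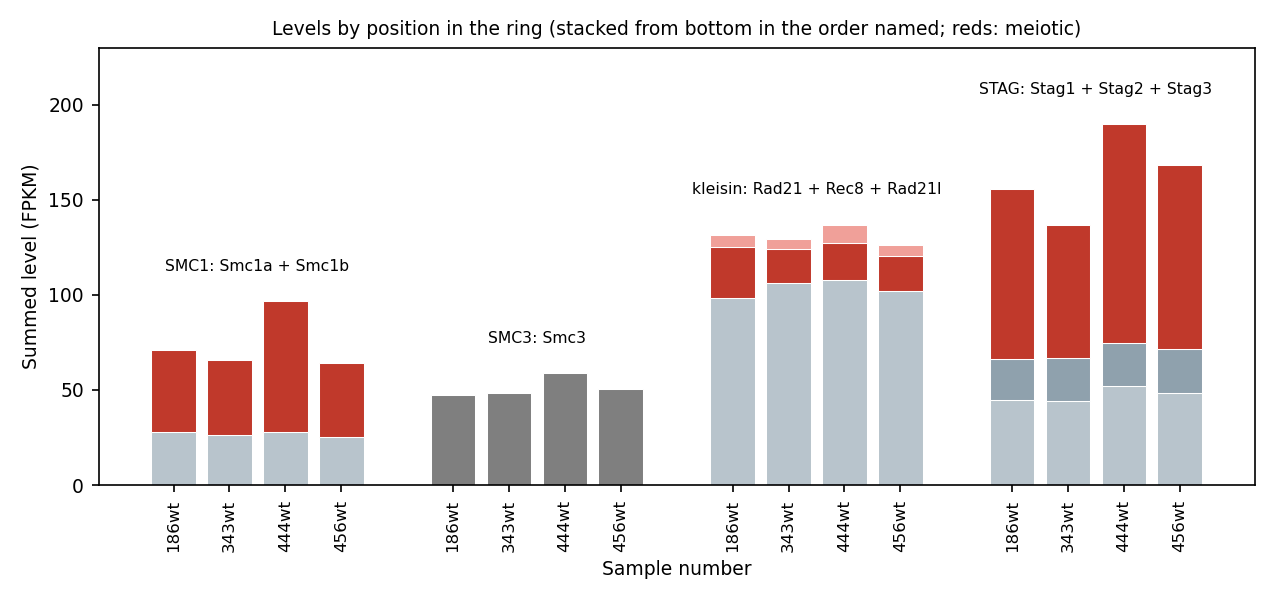
Summed FPKM (vertical axis, from 0) of the genes at each position of the complex, 1 bar for each sample number, with meiotic genes in reds and the others in greys, stacked in the order named. The red part makes up 63.1% of the SMC1 bars, 20.8% of the kleisin bars and 56.7% of the STAG bars on average.

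The 4 numbers were then compared for each gene with limma on log2(FPKM + 0.1), to see which cohesin genes varied between samples and whether paralogs varied in parallel. Differences were counted at a Benjamini-Hochberg adjusted p-value under 0.05 over the 20795 genes tested. Of the 9 genes, 7 differed between numbers, against 58.2% of all genes tested and 84.5% of those whose mean reached 10 FPKM, so the count of members is near the background. The libraries with 1 number may share an RNA, and the p-values then measure only the differences between these 4 samples. The highest and lowest number differed by a median of 0.31 over the 9 genes on the log2(FPKM + 0.1) scale. This median was 0.55 over all genes but 0.33 over those whose mean reached 10 FPKM, as the means of all 9 did. Differences of at least 1.5-fold that also passed the test were found for 3 of the 9, against 25.2% of all genes, a share near the background. They were Smc1b, Stag3 and Rec8, the 3 meiotic members. No such share was taken over genes whose mean reached 10 FPKM. The 444wt libraries ran higher as a whole, by 0.10 on the log2 scale against 343wt by the median ratio over genes, and smaller differences are to be read against that shift.

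Smc1b had 43.0, 43.1 and 42.8 FPKM in the 186wt libraries, 40.3, 38.8 and 39.1 in 343wt, 68.4, 68.7 and 69.0 in 444wt, and 39.0, 38.5 and 39.4 in 456wt. All 3 libraries of 444wt were above the 9 others, which held for 11.5% of all genes tested, and the other 3 numbers lay close together. From the lowest to the highest number the level rose 1.76-fold (0.82 on the log2 scale, SE 0.021, limma adjusted p = 1.41e-10). Most of this difference lay in 444wt, for without it the range of Smc1b was 0.14 on the log2 scale (SE 0.024, limma adjusted p = 0.00170).

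Stag3 had 85.6, 96.0 and 86.9 FPKM in 186wt, 71.6, 68.0 and 70.2 in 343wt, 117.2, 117.4 and 110.4 in 444wt, and 99.1, 93.5 and 99.2 in 456wt. The 444wt libraries were again above all others, and those of 343wt were below all others, as for the lowest number of 26.1% of genes. The difference between these numbers was 1.65-fold (0.72 on the log2 scale, SE 0.044, limma adjusted p = 5.39e-07). Stag3 therefore spread over the numbers more evenly than Smc1b, with 186wt and 456wt in between.

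Rec8 followed another order than Smc1b and Stag3. It had 26.9, 28.1 and 26.1 FPKM in 186wt, 17.9, 17.3 and 17.6 in 343wt, 19.1, 19.1 and 19.6 in 444wt, and 18.9, 17.9 and 19.1 in 456wt. All libraries of 186wt were above the 9 others, which was the case for 4.06% of the genes tested, and the other 3 numbers lay between 17.6 and 19.2 FPKM. The difference between highest and lowest was 1.54-fold (0.62 on the log2 scale, SE 0.037, limma adjusted p = 2.47e-07). In 444wt, where Smc1b and Stag3 were highest, Rec8 was at 19.2 FPKM. That level was below 186wt but above 456wt (18.6 FPKM) and 343wt (17.6 FPKM), although the libraries of 444wt and 456wt overlapped.

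The subunit shared by mitotic and meiotic rings, Smc3, had 47.5, 48.2, 58.8 and 50.5 FPKM in 186wt, 343wt, 444wt and 456wt (limma adjusted p = 4.29e-06). It was higher in 444wt than in every library of the other numbers, by 1.24-fold over the lowest. Among mitotic members, Rad21 had 98.2, 106.4, 108.0 and 102.0 FPKM in the same order (adjusted p = 0.000306), and Stag1 had 44.7, 44.1, 51.9 and 48.4 FPKM (adjusted p = 0.00359). The call for Stag1 was lost when the libraries were rescaled by their median ratio (adjusted p = 0.0862) and without 444wt (adjusted p = 0.0938). Under the same rescaling the highest number for Rad21 was 343wt in place of 444wt.

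Smc1a had 28.0, 26.2, 27.9 and 25.3 FPKM and Stag2 had 21.6, 22.7, 22.7 and 22.9 FPKM in the 4 numbers in the same order. Neither passed the test (limma adjusted p = 0.149 and 0.303), and the libraries of the numbers overlapped for both. Smc1a passed only with 186wt left out (adjusted p = 0.0472). They are the only X-linked members. Of the X-linked genes tested, 56.3% differed between numbers, and of autosomal genes 58.5%, and of X-linked genes with at least 10 FPKM 89.2%. Nipbl, whose product loads cohesin onto chromosomes, had 21.4, 20.3 and 21.6 FPKM in 186wt, 343wt and 444wt and 16.9 FPKM in 456wt, with the 456wt libraries below all others (limma adjusted p = 6.85e-06). This call rested on 456wt, since without it the adjusted p was 0.109.

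In all, 444wt was the highest number for 6 of the 9 genes, compared with 36.3% of all genes tested. The libraries of the highest number were above all others for 5 of them (Smc1b, Smc3, Stag1 and Stag3 in 444wt, Rec8 in 186wt), compared with 30.5% of all genes. After rescaling by the median ratio 444wt was the highest for 4 of 9, against 30.1% of all genes, and its libraries were above all others for the same 4, Smc1b, Smc3, Stag1 and Stag3, against 8.3% of all genes.

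The differences between the numbers were set beside the marker lists of the cells present. Each of the 8 meiotic prophase markers was highest in 444wt, among them Sycp3, an axis protein of the synaptonemal complex, with 99 FPKM in 444wt and 57.9 to 70.8 FPKM in the others. The summed prophase list was 1 of the lists that went highest in 444wt, with spermatogonia (770 FPKM, 565 to 698 in the others) and proliferation genes (457 FPKM, 333 to 418 in the others). Of the 8 spermatogonia markers, 5 were highest in 444wt, and Uchl1 alone had 436 FPKM there. Gfra1 and Id4 were highest in 456wt and Nanos2 in 343wt, and Id4 was lowest in 444wt. Of the 6 proliferation genes, 5 were highest in 444wt. The Sertoli, Leydig, endothelial and macrophage lists were lowest in 444wt, but the Sertoli sum was close in 456wt (2146 FPKM in 444wt, 2283 in 456wt). The peritubular myoid list went another way, with 533, 253, 670 and 1112 FPKM in 186wt, 343wt, 444wt and 456wt. In 186wt, where Rec8 was highest, the prophase sum was 278 FPKM and the Sertoli sum 3650 FPKM, neither of them the highest of the 4. The part of the cell mixture in the differences of the cohesin genes was not tested.

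**Figure D3:**
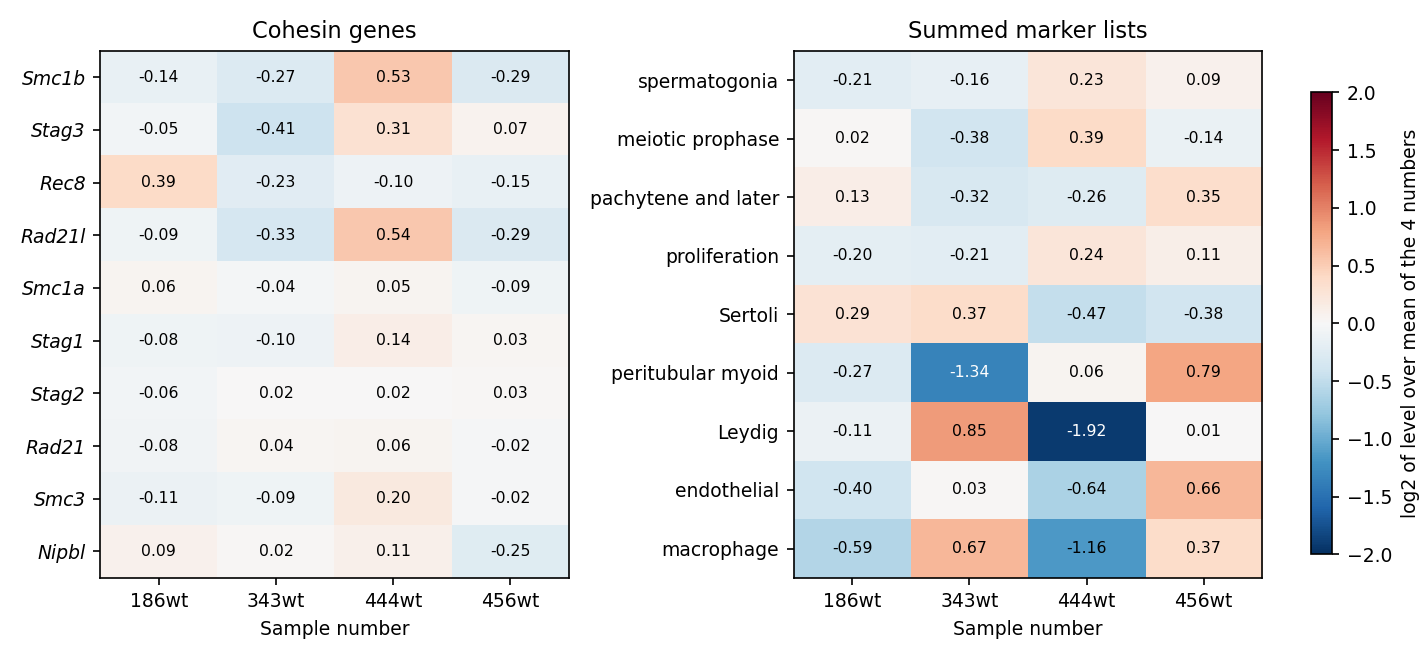
Level of cohesin genes (left) and summed marker lists (right) in each sample number as log2 of the value over the mean of the 4 numbers, in colour and as printed values. Smc1b (0.53) and Rad21l (0.54) in 444wt and Rec8 (0.39) in 186wt are the largest positive values among the cohesin genes, and the prophase list is at 0.39 in 444wt.

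Ratios between paralogs in single libraries asked whether a meiotic gene moved with its mitotic counterpart. They were compared between numbers by an exact permutation test over all 369600 ways to place 12 libraries in 4 numbers of 3, with Benjamini-Hochberg adjustment over 5 ratios. The smallest p that this test can give is 6.49e-05. As the libraries of a number may share an RNA, these p-values too may measure only the differences between these 4 samples. The ratio printed for a number is that of its averaged levels. Smc1b/Smc1a was 1.53-fold in 186wt, 1.5-fold in 343wt, 2.46-fold in 444wt and 1.54-fold in 456wt (exact permutation p = 0.0163, adjusted 0.0204). The difference lay in 444wt, as the adjusted p was 0.896 without it.

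Rec8/Rad21 was 0.276 in 186wt, 0.166 in 343wt, 0.179 in 444wt and 0.183 in 456wt (exact permutation p = 0.000390, adjusted 0.00130). Its libraries in 186wt were above all others. Stag3/Stag1 was 2-fold in 186wt, 1.58-fold in 343wt, 2.21-fold in 444wt and 2.01-fold in 456wt (exact permutation p = 0.00214, adjusted 0.00357). That difference was lost without 343wt (adjusted p = 0.118) and without 444wt (adjusted p = 0.0536).

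Stag3/Stag2 was 4.13-fold, 3.07-fold, 5.04-fold and 4.23-fold in 186wt, 343wt, 444wt and 456wt (exact permutation p = 0.000519, adjusted 0.00130), and was at an adjusted p of 0.0536 without 444wt. Stag2/Stag1 moved least, from 0.439 in 444wt to 0.516 in 343wt (exact permutation p = 0.0279, adjusted 0.0279). The call for this mitotic pair was lost when library 3 of 186wt or any library of 444wt or 456wt was left out, with an adjusted p of 0.0531 to 0.104. The 3 meiotic genes thus each changed relative to a mitotic paralog, Smc1b mainly in 444wt, Stag3 in 343wt and 444wt, and Rec8 in 186wt. A changed ratio was not theirs alone, as the mitotic pair Stag2/Stag1 also passed with all libraries in.

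**Figure D4:**
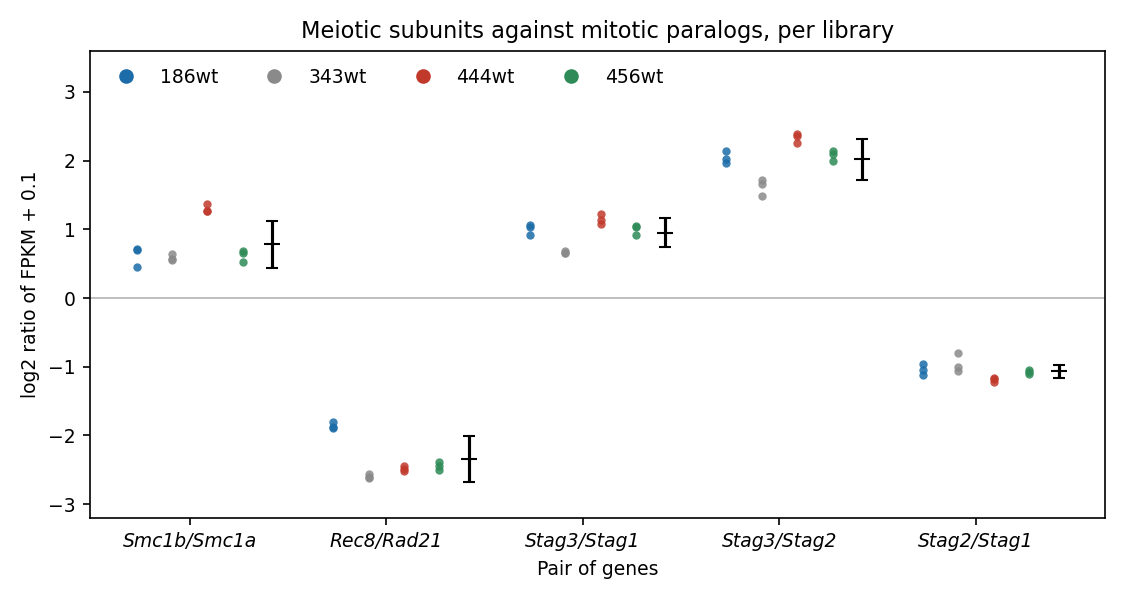
The log2 ratio of FPKM + 0.1 (vertical axis) for 5 pairs of cohesin genes (horizontal axis) in each library, coloured by sample number, with the mean and SD over the 4 numbers in black and a line at equal levels. Smc1b and Stag3 lie above their paralogs in every library and Rec8 below Rad21. The points of 444wt lie above all others for Smc1b/Smc1a, Stag3/Stag1 and Stag3/Stag2, and those of 186wt for Rec8/Rad21. The points of 343wt lie below all others for Rec8/Rad21, Stag3/Stag1 and Stag3/Stag2, and those of 444wt for Stag2/Stag1.

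Among the members, Smc1b followed Smc3 most closely over the 12 libraries (Pearson's r = 0.90 on the log2 scale), and its r was 0.74 with Stag3, -0.02 with Rec8 and 0.43 with Smc1a. Rec8 had its lowest r with Rad21, at -0.76. The libraries come from only 4 samples, so these values describe the shape of the levels and carry no test. Among the 14348 genes with a mean of 1 FPKM or more, those with the most similar shape to Smc1b were Polr2a (r = 0.997), Clcn6 (0.983) and Smg1 (0.980). For Stag3 they were Grik5 (0.987), Apoc2 (0.982) and 4930422G04Rik (0.982), and for Rec8 they were Ddx17 (0.983), Ddx60 (0.954) and Slit2 (0.951). An r of at least 0.9 was reached by 168 of these genes with Smc1b, by 395 with Stag3 and by 29 with Rec8, so the shape of Rec8 was shared by the fewest genes.

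The regulators of cohesin were followed as a list of 15 genes. Of these, 11 differed between numbers, against 58.2% of all genes and 84.5% of those whose mean reached 10 FPKM. The highest number was 444wt for 12 of them, against 36.3% of all genes. After rescaling by the median ratio 12 differed, where 11670 of 20766 genes did so, and 10 were highest in 444wt, against 30.1% of all genes. The median difference between highest and lowest number was 0.34 on the log2 scale. Rad21l, the other meiotic kleisin, had 6.28, 5.32, 9.73 and 5.46 FPKM in 186wt, 343wt, 444wt and 456wt (limma adjusted p = 4.91e-06). Its level was thus below that of Rec8 in each number, and it was highest where Smc1b was. Without 444wt its adjusted p was 0.0561.

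Among the factors that act on cohesin during and after replication, Esco2, an acetyltransferase of SMC3, had 30.4, 27.2, 42.1 and 32.3 FPKM in the same order of numbers (limma adjusted p = 5.02e-07). Cdca5, which encodes sororin and keeps cohesin on chromatin, had 17.6, 19.3, 27.1 and 26.0 FPKM (adjusted p = 2.46e-07). The shugoshin genes, whose products protect centromeric cohesin, were at 5.18 to 8.30 FPKM for Sgol1 and 9.39 to 12.5 FPKM for Sgol2, both highest in 444wt. Espl1, the gene of separase, which cleaves the kleisin, had 24.7, 24.1, 34.1 and 32.0 FPKM (adjusted p = 1.54e-08). Esco2, Cdca5, Sgol1 and Rad21l passed 1.5-fold, which is 4 of the 15 regulators against 25.2% of all genes, a share near the background.

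The cohesin release factor Wapal had 65.6, 71.1, 82.5 and 75.8 FPKM in the order above (limma adjusted p = 5.50e-06), and its partners had 23.9 to 29.5 FPKM for Pds5b (adjusted p = 0.000285) and 31.5 to 32.6 FPKM for Pds5a (adjusted p = 0.290). Mau2, which forms the loader with Nipbl, was the 1 regulator highest in 186wt, with 34.7 FPKM, and lowest in 444wt, with 27.7 FPKM (adjusted p = 5.77e-06). Its lowest number thus differed from that of Nipbl, which was 456wt, but after rescaling by the median ratio Nipbl too was highest in 186wt. Esco1 (21.8 to 25.8 FPKM) and Ctcfl, the germ cell paralog of the boundary factor gene Ctcf (4.21 to 6.11 FPKM), also differed. The regulators that did not pass were Pds5a, Hdac8, Pttg1 and Ctcf, with adjusted p from 0.106 to 0.290. Hdac8, which encodes the deacetylase of SMC3, was the lowest of the list at 2.52 ± 0.273 FPKM (SD, n = 4).

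The 4 SMC genes of other complexes all differed between numbers, against 58.2% of all genes and 84.5% of those whose mean reached 10 FPKM, as theirs did. The condensin genes Smc2 and Smc4 had 18.4 to 24.1 FPKM and 50.6 to 63.1 FPKM, and Smc5 and Smc6 had 30.4 to 37.2 FPKM and 35.8 to 41.6 FPKM. All 4 were highest in 444wt as deposited, against 36.3% of all genes, and 3 were so after rescaling, against 30.1%. None of them reached 1.5-fold, whereas 25.2% of all genes did so and passed the test, and 4 genes are too few to set against that share.

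**Figure D5:**
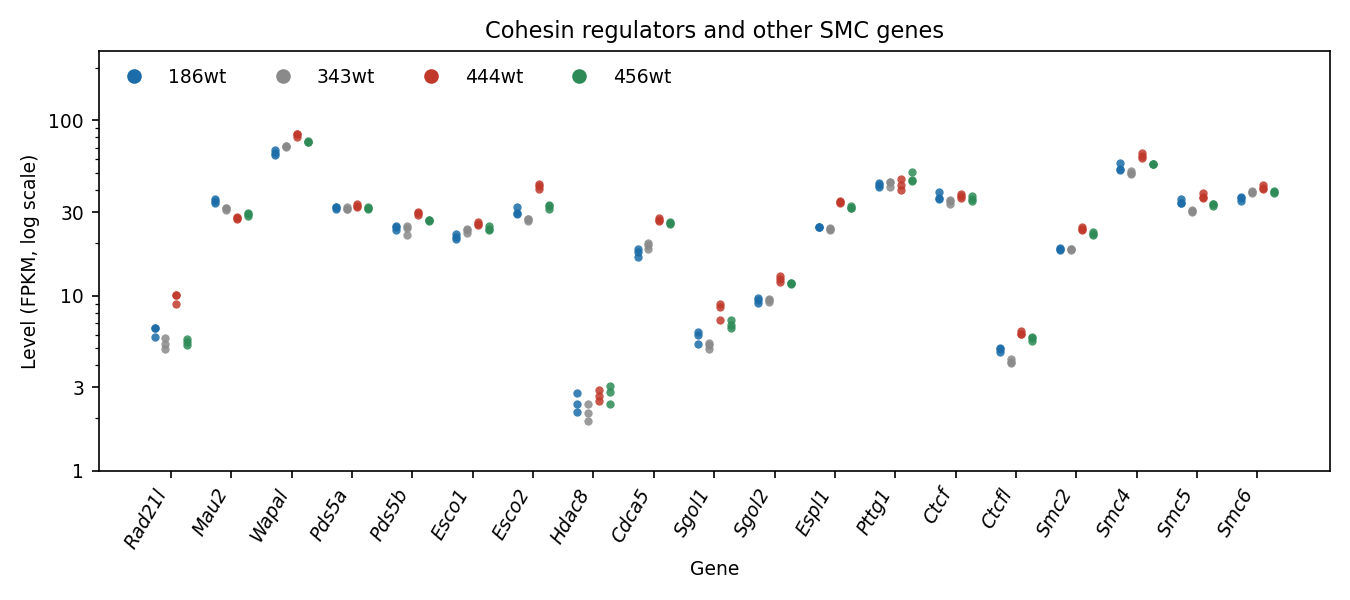
Level in FPKM on a log scale (vertical axis) of 15 cohesin regulators and 4 SMC genes of other complexes (horizontal axis) in every library, coloured by sample number. Rad21l and Esco2 are highest in 444wt, at 9.73 and 42.1 FPKM, and Mau2 is lowest there, at 27.7 FPKM.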

How the data were processed

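RNA was sequenced from 12 libraries of enriched germ cells. The deposited values are FPKM, which the authors computed for each gene with RSEM 1.2.8, after placing 100-bp read pairs with BowTie 0.12.9 on the transcriptome of NCBI build 37 (mm9) and discarding those with 2 or more mismatches. Strand was not given in the sources used here. Columns were matched to samples by name, and all were used. ChIP-seq, Affinity-seq and input samples were not analysed here.

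Levels were averaged over the 3 libraries of a number. Genes whose mean reached 0.1 FPKM entered limma 3.58.1 (R 4.3.3) as an F-test over 4 numbers, with eBayes and trend, on log2(FPKM + 0.1), which understates changes of low genes. Ratios were tested by exact permutation in Python 3.11.15 with numpy 2.4.6. Each printed SE is that of a difference between 2 numbers. Depth was estimated from 307 single-transcript genes of 300 to 500 bp. For the first 186wt library the 95% interval of that estimate was 14.5 to 14.6 M, which reflects their scatter alone. Positions are from GENCODE M1, the annotation of that build, whereas promoters are from RefSeq on GRCm38.p6, and no coordinates were converted. Scripts were tested on simulated data.

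The genes named are the 9 members, 15 regulators, 4 other SMC genes, markers and, for each meiotic member, the 3 genes of highest r. Members, lists and tests were chosen with earlier results of these data known. The counts at 1.5-fold, by chromosome and by level, the sums by position, the non-overlap counts and the G and C share of promoters were added after the values were seen. The marker Meiob was not matched and is not reported here. Alternatives were other pseudocounts, filters and scalings, no trend, the replicate block and leaving out libraries or numbers.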

Additional observations from a re-analysis of the deposited data

Results flagged for a closer look

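The values of the 4 numbers were compared for 33 quantities, the 28 genes listed and 5 log2 ratios, by Dixon's test, which divides the gap between an extreme number and its neighbour by the whole range. A number was set apart in 4 of them, where chance gives about 1.65 if the quantities are independent. They are not, since all share the 4 samples and Smc1b enters both as a level and in a ratio. Smc1b had 68.7 FPKM in 444wt and 38.9 to 43.0 FPKM in the others, and the log2 ratio Smc1b/Smc1a was 1.30 in 444wt and 0.59 to 0.62 in the others. Stag2 had 21.6 FPKM in 186wt and 22.7 to 22.9 FPKM in the others, and Pttg1 had 47.1 FPKM in 456wt and 42.9 to 43.6 FPKM in the others. For Stag2 and Pttg1 the limma test found no difference between numbers at an adjusted p under 0.05 (0.303 and 0.161).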

How the results depend on the processing

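The sign of each of the 5 mean log2 ratios was the same under all alternatives tried, with 0.61 to 0.85 for Smc1b/Smc1a, -2.51 to -2.26 for Rec8/Rad21, 0.89 to 1.05 for Stag3/Stag1, 1.91 to 2.15 for Stag3/Stag2 and -1.10 to -1.02 for Stag2/Stag1 when a library or number was left out. Leaving out a library or number gave 9848 to 11780 genes that differed, 6 to 8 of them among the 9 cohesin genes. Other pseudocounts, filters and scalings kept both counts within 1.5 times the reported ones.

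Adjusted p-values for the difference of a ratio between numbers ranged, with a library or number left out, from 0.000974 to 0.0446 for Rec8/Rad21, from 0.00487 to 0.896 for Smc1b/Smc1a, from 0.00216 to 0.118 for Stag3/Stag1, from 0.000974 to 0.0536 for Stag3/Stag2 and from 0.00885 to 0.393 for Stag2/Stag1. The highest values arose without 444wt (0.896 for Smc1b/Smc1a, 0.393 for Stag2/Stag1, 0.0536 for both Stag3 ratios) or without 343wt (0.118 for Stag3/Stag1), and Stag2/Stag1 was at 0.0536 without 456wt. Leaving out a number also leaves fewer libraries to permute.

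The library numbers 1 to 3 pair nothing in the labels. Deviations of libraries with the same number correlated by a median of -0.01, and 1 of 12 libraries correlated best with its own number. With the library number as a replicate block the adjusted p was 0.0716 for Smc1b/Smc1a and 0.0885 for Stag2/Stag1, the other 3 ratios stayed under 0.05, and 11774 genes and 7 cohesin genes differed. Of the genes not called, Pds5a passed after rescaling by the median ratio (adjusted p = 0.0451) and Pttg1 without library 2 of 444wt (0.0467). The SD between libraries of a number was 2.08% of the mean for Nipbl and 1.43% for Rad21. FPKM without deposited counts allowed no count model.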
